A study of Cucumis melo with 9 samples.

Results

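The genes described here are those of the melon gene table annotated as E3 ubiquitin ligases or ubiquitin-conjugating (E2) enzymes. A gene was a member when its deposited description held, in any case, "E3 ubiquitin", "U-box domain", "ubiquitin-conjugating", "ubiquitin conjugating" or "RING-H2" and its FPKM (read count scaled by gene length and library total) averaged above 1 over the 9 libraries. Members were thus chosen by their level over all groups, which includes the values compared here. Descriptions naming COP1 were left out, which removed 3 genes. Of the 29980 genes in the table, 401 carried these words, and 291 of them passed the level, among 15022 genes that did so in all. The other 110 were not tested, and 37 of these had no count in any library. The members nearest to the limit were MELO3C021793.2 at a mean FPKM of 1.00 and MELO3C007215.2 at 1.06, and the genes just below it were MELO3C014511.2 at 0.970 and MELO3C016704.2 at 0.959. A mean FPKM at or below 1 in at least 1 group was found for 31 members, which passed only through another group, so counts are also given for the 260 members above 1 in every group.

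The libraries came from ripe fruit of the climacteric oriental melon 'HT', grown in a greenhouse. Recovered fruit had 7 d of storage at 4°C followed by 1 d at room temperature (about 22°C), chilled fruit stayed at 4°C for 8 d, and unchilled fruit were picked 8 d after the fruit of the other groups. Each group had 3 replicates of 3 fruits. All groups shared the cultivar and the ripe stage, the stored fruit were free of chilling injury according to the labels, and cold storage and harvest date cannot be told apart in any comparison with unchilled fruit.

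Ubiquitin is a small protein that cells attach to other proteins. An activating enzyme (E1) charges it, a conjugating enzyme (E2) takes it over, and an E3 ligase picks the target; chains of ubiquitin commonly send the target to the proteasome, and deubiquitinating enzymes remove them. E3 ligases fall into types by how they hold the E2: RING and U-box proteins bring E2 and target together, whereas HECT ligases carry the ubiquitin themselves. In plants these ligases set the stability of hormone receptors, transcription factors and membrane proteins, and several are known from Arabidopsis to act in cold, drought and abscisic acid responses.

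Counts per library summed to between 15508367 and 19011486. Levels are given as TMM-scaled FPKM. Each deposited FPKM was divided by its library's TMM factor, which was 1.12 to 1.13 in recovered, 0.764 to 0.808 in chilled and 1.11 to 1.13 in unchilled fruit. The first chilled library differed more from the others of its group (chi-square per degree of freedom 39.5 and 47.3) than those differed from each other (6.98), and the first unchilled library likewise (54.2 and 45.9, against 15.9), so values that move without either are given. Genes known from ripe fruit were not at like levels in the groups. CmAAT1, an alcohol acyltransferase of ester synthesis (MELO3C024771.2), was at 2033 to 2833 in recovered, 296 to 337 in chilled and 1745 to 2262 in unchilled fruit, and CmNOR, a NAC factor of ripening (MELO3C016540.2), at 1000.4 to 1277 in recovered, 23.8 to 27.8 in chilled and 684 to 917 in unchilled fruit. CmAAT3, another alcohol acyltransferase (MELO3C024762.2), was at 0.346 to 1.096 in recovered, 0.0463 to 0.187 in chilled and 2.44 to 12.6 in unchilled fruit. CmACO1, an oxidase of ethylene synthesis (MELO3C014437.2), was at 1332, 2421 and 633 in recovered, 466 to 593 in chilled and 1057 to 1423 in unchilled fruit. Its call in chilled against unchilled fruit (-1.19) was lost without any 1 chilled library and without unchilled replicate 2 or 3. In recovered against chilled fruit (1.42) it was lost without recovered replicate 2 (0.85). Markers of other tissues moved as well. The summed level of 9 phloem genes was 78.3 to 108 in recovered, 232 to 311 in chilled and 295 to 547 in unchilled fruit, and most of it came from the 26 kDa phloem lectin in unchilled fruit (MELO3C002874.2, on average 84.5 in chilled and 305 in unchilled fruit). By gene, 4 of the 9 were higher and 4 lower in chilled than unchilled fruit (median log2 fold change 0.58), and 2 were higher and 5 lower in recovered than in chilled fruit (-1.20). The summed level of 7 seed genes was 41.3 to 50.2 in recovered, 139.7 to 173 in chilled and 87.5 to 103 in unchilled fruit, with an 11S globulin (MELO3C012886.2) averaging 87.4 in chilled and 26.9 in unchilled fruit. By gene, 3 of the 7 were higher and 2 lower in chilled than unchilled fruit (median -0.12), and 1 was higher and 4 lower in recovered than in chilled fruit (-2.18). The summed level of 3 surface genes was 35.6 to 76.9 in recovered, 24.7 to 59.3 in chilled and 103 to 411 in unchilled fruit. Their part in the results was not tested, and in bulk RNA fewer cells of a type and less transcript per cell cannot be told apart.

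The share of members called was close to that of all tested genes. With edgeR's quasi-likelihood test (Benjamini-Hochberg adjusted p below 0.05 over all 15022 genes and a log2 fold change past 1, n = 3 libraries per group), 69 members were higher and 84 lower in recovered than in chilled fruit, which is 52.6% of members beside 50.4% of all tested genes (25.1% higher and 25.3% lower). Between chilled and unchilled fruit, 75 were higher and 74 lower (51.2%, beside 48.3% of all genes, with 22.1% higher and 26.2% lower), and between recovered and unchilled fruit 15 were higher and 24 lower (13.4%, beside 12.8% of all genes, with 3.66% higher and 9.15% lower). Their median log2 fold changes were -0.12, 0.09 and 0.05 in these comparisons, beside -0.02, -0.06 and 0.01 for all tested genes. Scaling by library totals moved the median of all genes to 0.49 for recovered against chilled and -0.56 for chilled against unchilled fruit, and changed the split of directions. It gave 105 higher and 53 lower members for recovered against chilled fruit, beside 53.6% of all genes (36.4% higher and 17.2% lower). For chilled against unchilled fruit it gave 50 higher and 103 lower, beside 52.8% of all genes (14.9% higher and 37.9% lower). For recovered against unchilled fruit the members' 15 and 24 stayed, beside 12.8% of all genes (3.71% higher and 9.14% lower). Among the 260 members above a mean FPKM of 1 in every group, 57 were higher and 70 lower in recovered than in chilled fruit, 65 higher and 60 lower in chilled than unchilled fruit, and 13 higher and 17 lower in recovered than unchilled fruit. These are 48.8%, 48.1% and 11.5% of the 260, beside 45.3%, 42.5% and 10.3% of the 12721 tested genes above 1 in every group. Of the 31 other members, those named below are MELO3C026831.2, MELO3C030056.2, MELO3C006475.2 and MELO3C003683.2, which were above 1 in chilled fruit alone, MELO3C020819.2, above 1 in unchilled fruit alone, MELO3C002199.2, at or below 1 in unchilled fruit, and MELO3C016008.2, MELO3C016212.2, MELO3C022982.2 and MELO3C027122.2, at or below 1 in chilled fruit. A difference was built into their selection, so their values, the adjusted p-values printed below included, are a description and no test. Libraries of the 2 groups did not overlap for 232 members between recovered and chilled fruit (79.7%, beside 79.9% of all genes), for 224 between chilled and unchilled fruit (77.0%, beside 78.3%) and for 152 between recovered and unchilled fruit (52.2%, beside 52.9%). A call in at least 1 comparison was made for 182 members, and 109 had none.

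By type of protein, the calls and medians varied, as the plot of fold changes by class shows. Of the 34 genes described as conjugating enzymes, 8 were called between chilled and unchilled fruit and 9 between recovered and chilled fruit (23.5%, beside 48.3% of all tested genes, and 26.5%, beside 50.4%). RING-H2 proteins and U-box proteins had negative medians in chilled against unchilled fruit (-0.55 and -0.86), whereas RING-type ligases without a further name and the remaining E3 ligases had positive ones (0.51 and 0.62). With library totals, the medians were -1.04 for RING-H2, -1.36 for U-box, 0.01 for unnamed RING-type and 0.12 for the remaining ligases. No test compared the classes with each other.

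**Figure D1:**
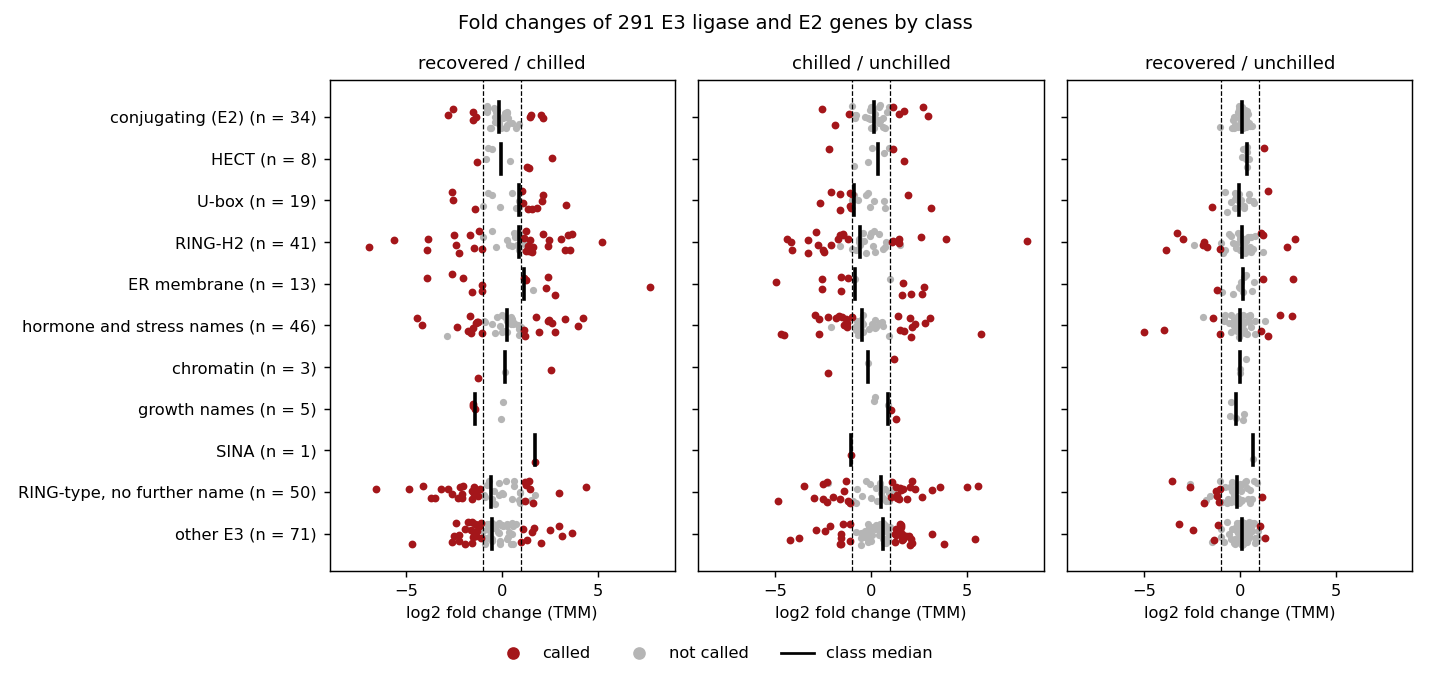
Log2 fold change of each of the 291 members (points, one per gene) by class in recovered against chilled, chilled against unchilled and recovered against unchilled fruit, with dashed lines at -1 and 1 and a bar at the class median. Called members (red) lie on both sides in the first 2 panels, with 153 and 149 of them, and are few in the third, with 39.

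**Figure D2:**
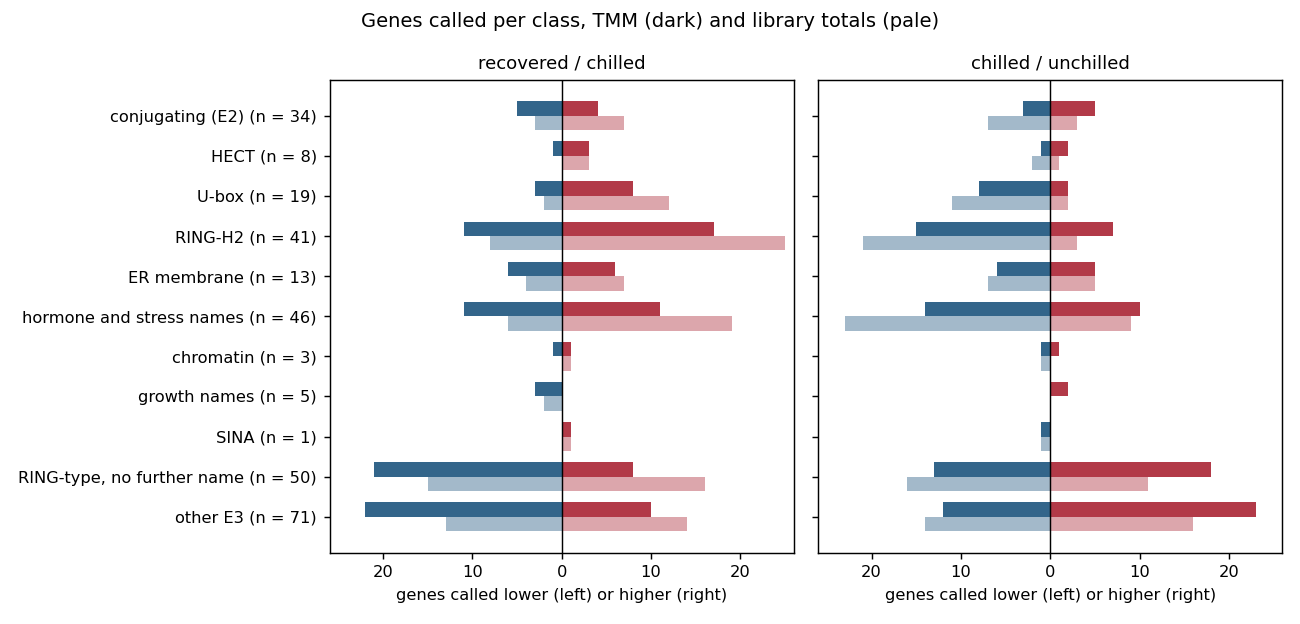
Number of members called higher (right) and lower (left) per class, with TMM scaling (dark) and library totals (pale). RING-H2 proteins give 7 higher and 15 lower in chilled against unchilled fruit by TMM, and 3 and 21 by library totals.

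The median of the members' mean FPKM was 16.1, beside 14.2 for all tested genes. Conjugating enzymes stood at the top: of 19 members above a mean FPKM of 100, 13 were described as E2. Together the members took 1.72 to 1.75% of the counts in recovered, 1.89 to 1.95% in chilled and 1.45 to 1.498% in unchilled libraries. Without the E2 gene MELO3C006972.2 the shares were 1.68 to 1.71% in recovered, 1.695 to 1.75% in chilled and 1.41 to 1.46% in unchilled libraries, so that recovered and chilled libraries overlapped. Their summed level was 8711 to 9154 TMM-scaled FPKM in recovered, 12298 to 12999 in chilled and 7409.9 to 7633 in unchilled fruit. In the deposited FPKM, which are scaled by library totals, the sums were 9879 to 10229 in recovered and 9931 to 10193 in chilled fruit, which overlap, and 8234 to 8568 in unchilled fruit. Without MELO3C006972.2 they were 9540.3 to 9912 in recovered, 8328 to 8519.7 in chilled and 7889.6 to 8236 in unchilled fruit, with recovered fruit highest.

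The member with the highest mean FPKM was an E2. MELO3C006972.2 has the KEGG orthology entry K06689 of the UBE2D type, the E2s that work with many RING and U-box ligases. Its level was 284, 299 and 278 TMM-scaled FPKM in recovered fruit, 1976, 2074 and 1995 in chilled fruit and 310.0, 295 and 325 in unchilled fruit, so that chilled fruit stood far above the other groups, which overlapped. The log2 fold change was -2.81 ± 0.09 (edgeR adjusted p = 2.26e-08) in recovered against chilled, 2.70 ± 0.09 (edgeR adjusted p = 2.43e-08) in chilled against unchilled and -0.11 ± 0.08 (edgeR adjusted p = 0.324) in recovered against unchilled fruit (each ± SE). It held 9.77 to 10.49% of the summed E2 level in recovered, 39.8 to 40.9% in chilled and 10.7 to 12.1% in unchilled fruit. With it, the 34 E2-described genes summed to 2841 to 2848 TMM-scaled FPKM in recovered, 4910.2 to 5074 in chilled and 2561 to 2762 in unchilled fruit. Without it they averaged 2557 ± 8.33 in recovered, 2983 ± 42.8 in chilled and 2376 ± 112 in unchilled fruit (SD, n = 3), and on the deposited FPKM 2878 ± 17.5 in recovered, 2367 ± 108 in chilled and 2664 ± 144 in unchilled fruit, where chilled fruit were lowest.

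Of the 34 genes described as conjugating, 5 were higher and 3 lower in chilled than unchilled fruit, 4 were higher and 5 lower in recovered than in chilled fruit, and 0 were called in either direction between recovered and unchilled fruit (13 had an unadjusted p below 0.05 there, and DESeq2 called 0). Of all tested genes, 22.1% were higher and 26.2% lower in chilled than unchilled fruit, and 12.8% were called between recovered and unchilled fruit. Library totals gave 3 of the 34 higher and 7 lower in chilled than unchilled fruit, and 7 higher and 3 lower in recovered than in chilled fruit. Not every one of these proteins handles ubiquitin: by KEGG entry, MELO3C024782.2 is of the type that conjugates SUMO and MELO3C007489.2 and MELO3C012564.2 of the type that conjugates NEDD8, both of them ubiquitin-like proteins, and MELO3C007866.2 is described as a protein that binds E2s. None of these 4 was called in a comparison, except that with library totals MELO3C007866.2 was called in recovered against chilled (1.03) and chilled against unchilled fruit (-1.33). All but MELO3C012564.2 were chosen after their values were seen. The SUMO-type gene stood at 116, 116 and 117 in recovered, 198, 195 and 198 in chilled and 109.5, 104 and 95.2 in unchilled fruit, with every chilled library above all others and a log2 fold change of 0.94 ± 0.07 in chilled against unchilled fruit, just short of the limit.

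Among 7 E2s with the UBE2D-type entry, 3 were higher in chilled than unchilled fruit and none lower. Of all tested genes, 22.1% were higher and 26.2% lower there. Besides the gene above, 1 of the 3 was MELO3C019589.2, at 49.2, 54.4 and 49.4 in recovered, 136, 128 and 135 in chilled and 41.7, 41.2 and 37.7 in unchilled fruit. The other, MELO3C025232.2, was at 168, 174 and 184 in recovered, 291, 310.0 and 319 in chilled and 137, 134 and 146 in unchilled fruit. For both, chilled fruit were highest and unchilled fruit lowest, without overlap. Their log2 fold changes in chilled against unchilled fruit were 1.73 ± 0.08 (edgeR adjusted p = 8.18e-08) and 1.14 ± 0.07 (edgeR adjusted p = 8.10e-07), and with library totals 1.23 and 0.64, so that the second was no longer called. The remaining 4 UBE2D-type genes were not called in this comparison, with values of 0.02 to 0.48. The UBE2W-type gene MELO3C016407.2 (K10688) had a log2 fold change of 1.46 ± 0.08 (edgeR adjusted p = 2.72e-07) in chilled against unchilled fruit (0.96 with library totals, not called). MELO3C019589.2 and MELO3C016407.2 were chosen after their values were seen.

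A less abundant E2 with no KEGG entry, MELO3C013359.2, was at 4.63, 3.26 and 7.17 in recovered, 40.8, 23.8 and 23.96 in chilled and 5.304, 3.196 and 2.93 in unchilled fruit. Chilled fruit were high and the other groups overlapped at a low level, with 2.95 ± 0.37 (edgeR adjusted p = 6.63e-05) in chilled against unchilled and -2.55 ± 0.36 (edgeR adjusted p = 0.000139) in recovered against chilled fruit. The lowest fold change of the class belonged to MELO3C007283.2, of the UBE2O type (K10581), which was at 5.13, 9.91 and 8.296 in recovered, 1.57, 1.94 and 1.698 in chilled and 14.2, 8.63 and 8.21 in unchilled fruit. Here chilled fruit were low, with -2.58 ± 0.30 (edgeR adjusted p = 4.30e-05) and 2.16 ± 0.29 (edgeR adjusted p = 0.000122) for the same comparisons, while the other 3 UBE2O-type genes were not called. An unannotated gene overlaps it by 303 bases on the opposite strand, and that gene had a mean FPKM of 0.

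Other abundant E2s moved less. The pair MELO3C012074.2 and MELO3C034034.2, of the RAD6 type (K10573), known from yeast and Arabidopsis for histone H2B ubiquitination and DNA damage tolerance, are next to each other on chromosome 10. The levels of MELO3C012074.2 were 359.8, 333 and 364 in recovered, 192, 187 and 191 in chilled and 303, 341 and 360.0 in unchilled fruit. Those of MELO3C034034.2 were 341, 303 and 310.3 in recovered, 339, 382 and 359 in chilled and 272, 355 and 323 in unchilled fruit. Chilled fruit were below both other groups for MELO3C012074.2 (log2 fold change -0.82 ± 0.08, edgeR adjusted p = 1.11e-05 in chilled against unchilled fruit, under the fold limit), and the groups overlapped for MELO3C034034.2 (0.19 ± 0.11, edgeR adjusted p = 0.141). No sequence was compared, so whether reads of this pair can be told apart was not tested. With library totals MELO3C012074.2 was called (-1.32). The UBC13-type gene MELO3C016132.2 (K10580), whose type builds chains used in signalling and DNA repair, had 0.40 ± 0.07 and the UBE2D-type MELO3C005866.2 0.31 ± 0.07 in chilled against unchilled fruit. With library totals both values changed sign, to -0.10 and -0.19, and neither was called with either scaling.

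**Figure D3:**
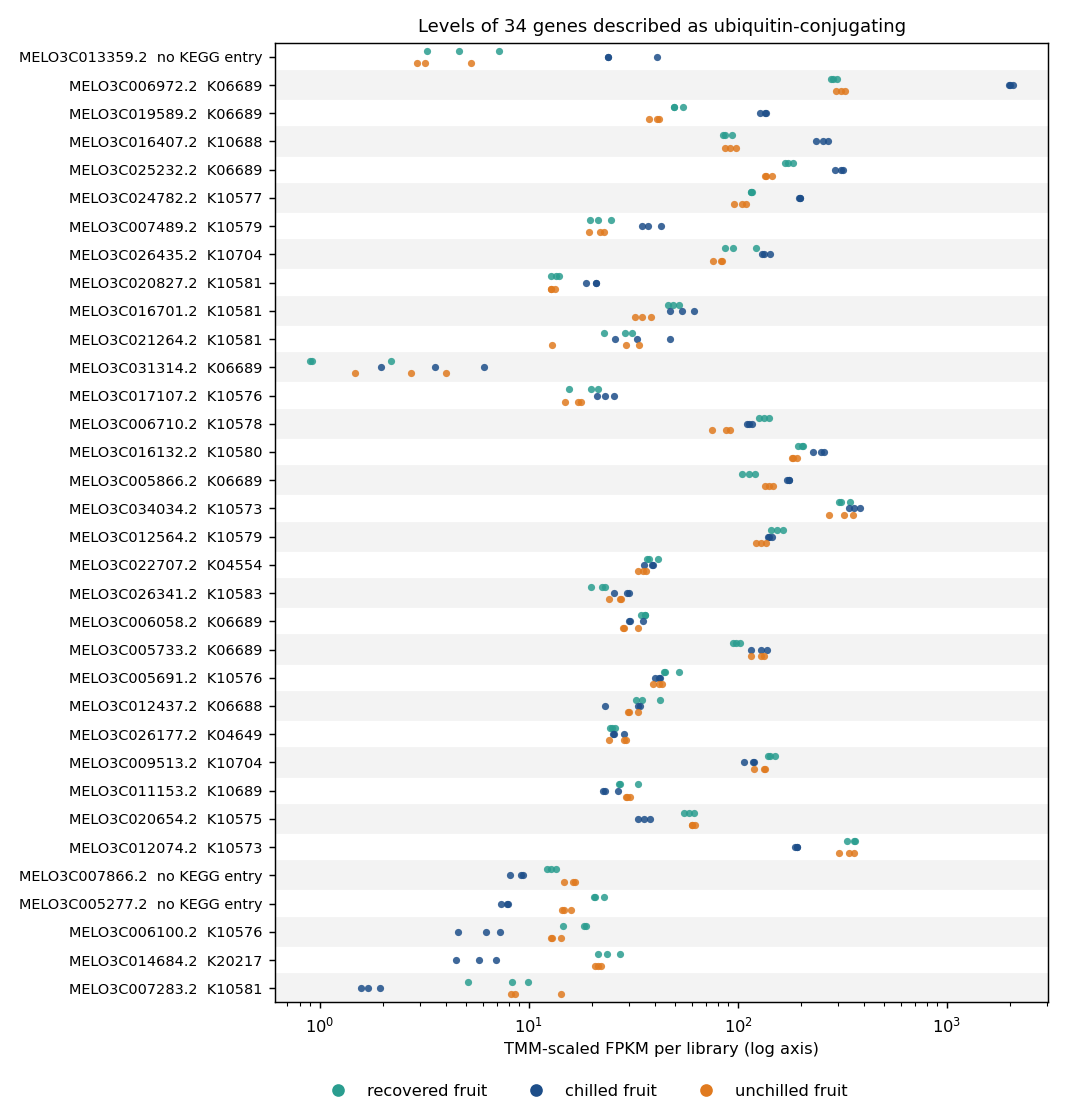
Level of each of the 34 genes described as ubiquitin-conjugating in every library (3 points per group, TMM-scaled FPKM, log axis), ordered by the log2 fold change of chilled against unchilled fruit, with KEGG entries. The gene MELO3C006972.2 stands at 1976 to 2074 in chilled fruit and 278 to 325 in the others, while most genes lie close together in the 3 groups.

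HECT ligases, the large enzymes that carry ubiquitin on a cysteine before passing it on, moved in both directions. The class was set by UPL or HECT names, so HUWE1 MELO3C003450.2, lower in chilled than unchilled fruit, is given with the other E3 ligases below. Of the 8 members of the class, 2 were higher and 1 lower in chilled than unchilled fruit, while in recovered against chilled fruit 3 were higher and 1 lower. All tested genes gave 22.1% higher and 26.2% lower in the first comparison, and 25.1% and 25.3% in the second. UPL3, which in Arabidopsis limits trichome branching and acts at the proteasome (MELO3C020814.2), was at 41.4, 43.7 and 43.9 in recovered, 115, 107 and 102 in chilled and 32.7, 31.3 and 34.1 in unchilled fruit, high in chilled fruit without overlap. Its log2 fold change was 1.72 ± 0.08 (edgeR adjusted p = 1.18e-07) in chilled against unchilled fruit and -1.33 ± 0.08 (edgeR adjusted p = 4.18e-07) in recovered against chilled fruit (-0.82 with library totals, not called). A UPL3-like gene, MELO3C011351.2, ran the other way at 13.8, 18.4 and 15.7 in recovered, 2.41, 2.78 and 2.77 in chilled and 13, 12.2 and 11.7 in unchilled fruit. It had -2.21 ± 0.16 (edgeR adjusted p = 1.30e-06) in chilled against unchilled and 2.59 ± 0.16 (edgeR adjusted p = 4.35e-07) in recovered against chilled fruit. UPL1-like MELO3C011072.2 had 1.12 ± 0.11 (edgeR adjusted p = 1.26e-05) in chilled against unchilled fruit, and 0.62 with library totals, which was not called. UPL4 (MELO3C009310.2, chosen after its values were seen) was at 16.5, 17.4 and 17.3 in recovered, 3.52, 7.42 and 8.03 in chilled and 6.71, 7.85 and 6.92 in unchilled fruit, so that recovered fruit stood above both other groups (1.25 ± 0.25, edgeR adjusted p = 0.00548 against unchilled fruit).

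U-box ligases, which in plants often carry armadillo repeats and act in defence and stress signalling, had more lower than higher calls in chilled against unchilled fruit. Of 19 members, 2 were higher and 8 lower there, beside 22.1% and 26.2% of all tested genes (2 and 11 with library totals, beside 14.9% and 37.9%). In recovered against chilled fruit 8 were higher and 3 lower, beside 25.1% and 25.3% (12 and 2 with library totals, beside 36.4% and 17.2%). Among 5 genes described as U-box protein 4, MELO3C006148.2 was at 8.84, 9.31 and 9.23 in recovered, 1.94, 2.02 and 2.402 in chilled and 9.83, 8.403 and 8.74 in unchilled fruit. Chilled fruit were low and the other groups overlapped (-2.08 ± 0.13, edgeR adjusted p = 4.74e-07 in chilled against unchilled and 2.10 ± 0.13, edgeR adjusted p = 3.99e-07 in recovered against chilled fruit). Another, MELO3C021709.2, was at 31.2, 30.7 and 31.8 in recovered, 8.55, 15.7 and 12.5 in chilled and 10.96, 11.1 and 11.3 in unchilled fruit, high in recovered fruit alone. A second U-box 4 gene, itself nearly without counts, overlaps it by 514 bases on the same strand. MELO3C021709.2 had 1.49 ± 0.18 (edgeR adjusted p = 0.000436) in recovered against unchilled and 1.35 ± 0.18 (edgeR adjusted p = 8.95e-05) in recovered against chilled fruit, whereas chilled and unchilled fruit overlapped (0.14 ± 0.18). The most abundant member of the class, U-box 62-like MELO3C018256.2, had -0.70 ± 0.10 in chilled against unchilled fruit, under the limit (with library totals -1.20, called). U-box 33-like MELO3C025920.2 was the only one of the 19 called lower in recovered than unchilled fruit (-1.43 ± 0.10, edgeR adjusted p = 5.52e-05; chosen after its values were seen).

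The class set as ligases of the membrane of the endoplasmic reticulum held 13 genes. They were grouped by RMA, HRD, MARCH and RIN names, which do not show where each protein sits. Between recovered and chilled fruit, 6 were higher and 6 lower (7 and 4 with library totals), beside 50.4% of all tested genes called in either direction. Between chilled and unchilled fruit 5 were higher and 6 lower (5 and 7 with library totals), beside 48.3%. Some ligases of these names mark proteins for removal from the endoplasmic reticulum, and an RMA ligase of pepper is known to hold back an aquaporin there under drought. The RMA1H1-like gene MELO3C002598.2, on chromosome 12, was at 927, 695 and 813 TMM-scaled FPKM in recovered fruit, 6.01, 2.89 and 2.82 in chilled fruit and 91.6, 134 and 131 in unchilled fruit. Recovered fruit were the highest, chilled fruit the lowest, and the 3 groups did not overlap. Its log2 fold change was 7.71 ± 0.34 (edgeR adjusted p = 1.34e-07) in recovered against chilled, -4.94 ± 0.31 (edgeR adjusted p = 1.00e-06) in chilled against unchilled and 2.77 ± 0.26 (edgeR adjusted p = 0.000203) in recovered against unchilled fruit. RMA3 (MELO3C016706.2) was at 12.1, 9.81 and 8.67 in recovered, 154, 156 and 145 in chilled and 28.97, 18.7 and 23 in unchilled fruit, also without overlap but in another order, with chilled fruit high and recovered fruit lowest. It had -3.90 ± 0.18 (edgeR adjusted p = 1.09e-07) in recovered against chilled, 2.69 ± 0.17 (edgeR adjusted p = 6.88e-07) in chilled against unchilled and -1.21 ± 0.17 (edgeR adjusted p = 0.000835) in recovered against unchilled fruit.

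The 6 RMA genes as a group thus had no common direction, with 3 higher and 2 lower in chilled than unchilled fruit (3 and 3 with library totals) and 3 higher and 3 lower in recovered than in chilled fruit (3 and 2 with library totals). All tested genes gave 22.1% higher and 26.2% lower in the first comparison by TMM, and 25.1% and 25.3% in the second. RMA1H1 MELO3C018740.2 stood at 3.57, 3.73 and 3.83 in recovered, 30.9, 18.2 and 19.1 in chilled and 5.15, 1.74 and 3.100 in unchilled fruit, high in chilled fruit (2.77 ± 0.36, edgeR adjusted p = 8.60e-05 against unchilled fruit). A further RMA1H1, MELO3C013615.2, was at 59.4, 67.2 and 61.7 in recovered, 10.96, 11.4 and 12.9 in chilled and 24.6, 29.1 and 27.5 in unchilled fruit and rose in recovered against both chilled (2.42) and unchilled fruit (1.21 ± 0.10, edgeR adjusted p = 9.40e-05); it was chosen after its values were seen. MARCH6, whose counterpart in yeast and Arabidopsis degrades membrane proteins and sterol-pathway enzymes (MELO3C018461.2), was at 72.97, 68.4 and 79.5 in recovered, 346, 294 and 278 in chilled and 68.8, 73.9 and 73.9 in unchilled fruit. Chilled fruit stood apart above the other groups, with 2.08 ± 0.11 (edgeR adjusted p = 2.03e-07) against unchilled fruit and -2.05 ± 0.11 (edgeR adjusted p = 2.05e-07) for recovered against chilled fruit. The other 3 genes with a MARCH name were all lower in chilled than unchilled fruit (library totals included).

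The HRD complex, which exports misfolded proteins from the endoplasmic reticulum, was represented by a component described as HRD3A (MELO3C002135.2) and by HRD1B (MELO3C004334.2), both chosen after their values were seen. HRD3A was at 20.9, 23.3 and 20.4 in recovered, 64.9, 61.5 and 63.96 in chilled and 21, 20.5 and 21.5 in unchilled fruit. HRD1B was at 31.6, 34.1 and 28.9 in recovered, 60.9, 65.3 and 67.4 in chilled and 33.2, 32.97 and 32.1 in unchilled fruit, and chilled fruit were highest for both, without overlap. Their log2 fold changes in recovered against chilled fruit were -1.56 ± 0.07 (edgeR adjusted p = 1.18e-07) and -1.03 ± 0.08 (edgeR adjusted p = 2.07e-06), and the second was not called with library totals (-0.53) or without recovered replicate 3 (-0.97). In chilled against unchilled fruit HRD3A had 1.59 ± 0.07 (edgeR adjusted p = 1.14e-07), whereas HRD1B was under the limit at 0.98 and called without chilled replicate 1 (1.02). RIN2, a ligase that in Arabidopsis takes part in the hypersensitive response (MELO3C014338.2, chosen after its values were seen), fell to 5.58, 6.58 and 6.93 in chilled fruit, against 36.1, 37.9 and 36.9 in unchilled fruit (-2.54 ± 0.09, edgeR adjusted p = 3.44e-08).

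RING-H2 proteins include the ATL family, small ligases with a membrane-spanning stretch that in Arabidopsis and rice often respond to elicitors and stress. Of 41 members, 7 were higher and 15 lower in chilled than unchilled fruit (3 and 21 with library totals), 17 were higher and 11 lower in recovered than in chilled fruit (25 and 8), and 4 were higher and 7 lower in recovered than unchilled fruit. The shares of all tested genes were 22.1% higher and 26.2% lower (14.9% and 37.9% with library totals) in the first comparison. They were 25.1% and 25.3% (36.4% and 17.2%) in the second and 3.66% and 9.15% in the third. RHA2a, a ligase that promotes abscisic acid responses in Arabidopsis (MELO3C007785.2), was at 253, 216 and 243 TMM-scaled FPKM in recovered fruit, 11.7, 4.14 and 3.49 in chilled fruit and 83.3, 129 and 124 in unchilled fruit. Chilled fruit were far below both others, and the groups did not overlap. The log2 fold change was 5.22 ± 0.44 (edgeR adjusted p = 7.02e-06) in recovered against chilled and -4.14 ± 0.42 (edgeR adjusted p = 2.59e-05) in chilled against unchilled fruit, and without the first chilled library 5.96 and -4.88. Its call in recovered against unchilled fruit (1.08 ± 0.36, edgeR adjusted p = 0.0441) was lost when any 1 recovered or unchilled library was left out, at adjusted p of 0.0727 to 0.136.

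Other RING-H2 genes were also low in chilled fruit. ATL79-like MELO3C005811.2 was at 186, 217 and 203 in recovered, 10.8, 27.2 and 17.5 in chilled and 96.1, 162 and 114 in unchilled fruit. It had -2.75 ± 0.32 (edgeR adjusted p = 6.04e-05) in chilled against unchilled and 3.45 ± 0.33 (edgeR adjusted p = 1.53e-05) in recovered against chilled fruit. ATL80 MELO3C017047.2 was at 60.8, 50.9 and 56.7 in recovered, 3.67, 7.08 and 3.84 in chilled and 55.9, 46.2 and 37.4 in unchilled fruit, so that recovered and unchilled fruit overlapped and chilled fruit were lower (-3.26 ± 0.26, edgeR adjusted p = 2.95e-06). MELO3C007236.2, a RING-H2 protein with no further name, was at 19.1, 15 and 14.1 in recovered, 2.41, 0.367 and 1.09 in chilled and 8.96, 8.22 and 11.1 in unchilled fruit, and its -2.88 ± 0.44 in chilled against unchilled fruit became -3.63 without the first chilled library. For recovered against chilled fruit it had 3.65 ± 0.44, or 4.40 without that library. The RING-H2 subunit 11 of the anaphase-promoting complex, the catalytic partner of a cell-cycle ligase (MELO3C028650.2, chosen after its values were seen), was at 32.04, 29.5 and 35.5 in recovered, 7.05, 5.51 and 5.77 in chilled and 27.2, 27.8 and 22.6 in unchilled fruit. It had -2.08 ± 0.15 (edgeR adjusted p = 1.23e-06) in chilled against unchilled fruit. It overlaps a transposon gene on the opposite strand over 6755 bases, and whether the counting used strand is not given here.

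A smaller number of RING-H2 genes were high in chilled fruit only. MELO3C026831.2, a member only through its level in chilled fruit, was at 0.453, 0.1802 and 0.0787 in recovered, 34.5, 32.4 and 23.3 in chilled and 0.0977, 0.0896 and 0.0932 in unchilled fruit, which is 705 counts over the chilled libraries, beside 8 in recovered and 3 in unchilled libraries. By counts it was 317 times higher in chilled than unchilled fruit (95% interval of 108 to 1540 from counting error alone) and 129 times higher than in recovered fruit (65.0 to 299.6). The fitted log2 fold change was 8.15 ± 0.44 (edgeR adjusted p = 2.44e-07) in chilled against unchilled fruit and -6.95 ± 0.39 (edgeR adjusted p = 2.75e-07) in recovered against chilled fruit, or -7.76 without the first recovered library. ATL20-like MELO3C030056.2, likewise above the level limit in chilled fruit alone, was at 0.0629, 0.188 and 0.273 in recovered, 10.2, 8.72 and 8.52 in chilled and 0.339, 0.498 and 0.9704 in unchilled fruit. It had 3.90 ± 0.40 (edgeR adjusted p = 1.56e-05) in chilled against unchilled and -5.61 ± 0.47 (edgeR adjusted p = 3.31e-06) in recovered against chilled fruit. Its lower level in recovered than unchilled fruit (-1.71 ± 0.54, edgeR adjusted p = 0.0344) rested on 9 and 28 counts and was lost without each of 5 single libraries (adjusted p of 0.051 to 0.129 from edgeR).

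In recovered fruit, 3 ATL genes stood out from unchilled fruit upwards and several downwards. ATL66 MELO3C018366.2 was at 14.98, 11.2 and 9.96 in recovered, 2.89, 2.98 and 2.46 in chilled and 1.03, 1.68 and 2.18 in unchilled fruit. Recovered fruit were highest without overlap (2.87 ± 0.31, edgeR adjusted p = 0.000271 in recovered against unchilled and 2.11 ± 0.30, edgeR adjusted p = 0.000135 in recovered against chilled fruit). In chilled against unchilled fruit it was called only without unchilled replicate 3 (1.01). ATL70 MELO3C009554.2 was at 3.76, 6.35 and 5.06 in recovered, 3.12, 1.66 and 1.26 in chilled and 0.8101, 0.743 and 1.16 in unchilled fruit. It had 2.47 ± 0.41 (edgeR adjusted p = 0.00187) in recovered against unchilled fruit. Its call in chilled against unchilled fruit (1.13) was lost without each of 4 single libraries (0.68 without chilled replicate 1) and with library totals (0.63). Both ATL16 genes were low in both stored groups: MELO3C004441.2 was at 4.09, 2.86 and 2.98 in recovered, 2.02, 1.98 and 1.395 in chilled and 27.1, 36.3 and 34.2 in unchilled fruit. The other, MELO3C022982.2, was at 3.22, 1.34 and 1.42 in recovered, 0.353, 0.345 and 0.357 in chilled and 8.06, 6.19 and 8.24 in unchilled fruit. Their log2 fold changes were -3.30 ± 0.20 (edgeR adjusted p = 3.58e-05) and -1.91 ± 0.34 (edgeR adjusted p = 0.00269) in recovered against unchilled fruit, and -4.18 ± 0.21 (edgeR adjusted p = 1.83e-07) and -4.38 ± 0.43 (edgeR adjusted p = 1.17e-05) in chilled against unchilled fruit. ATL2, which responds quickly to chitin in Arabidopsis (MELO3C006682.2), was at 3.76, 2.23 and 1.88 in recovered, 20.9, 8.67 and 7.28 in chilled and 22.4, 17.1 and 22.9 in unchilled fruit, lowest in recovered fruit (-2.99 ± 0.44, edgeR adjusted p = 0.00128 against unchilled fruit). In recovered against chilled fruit it had -2.22 ± 0.43 (edgeR adjusted p = 0.00132), and -1.61 without the first chilled library; without that library it was also called lower in chilled than unchilled fruit (-1.38).

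**Figure D4:**
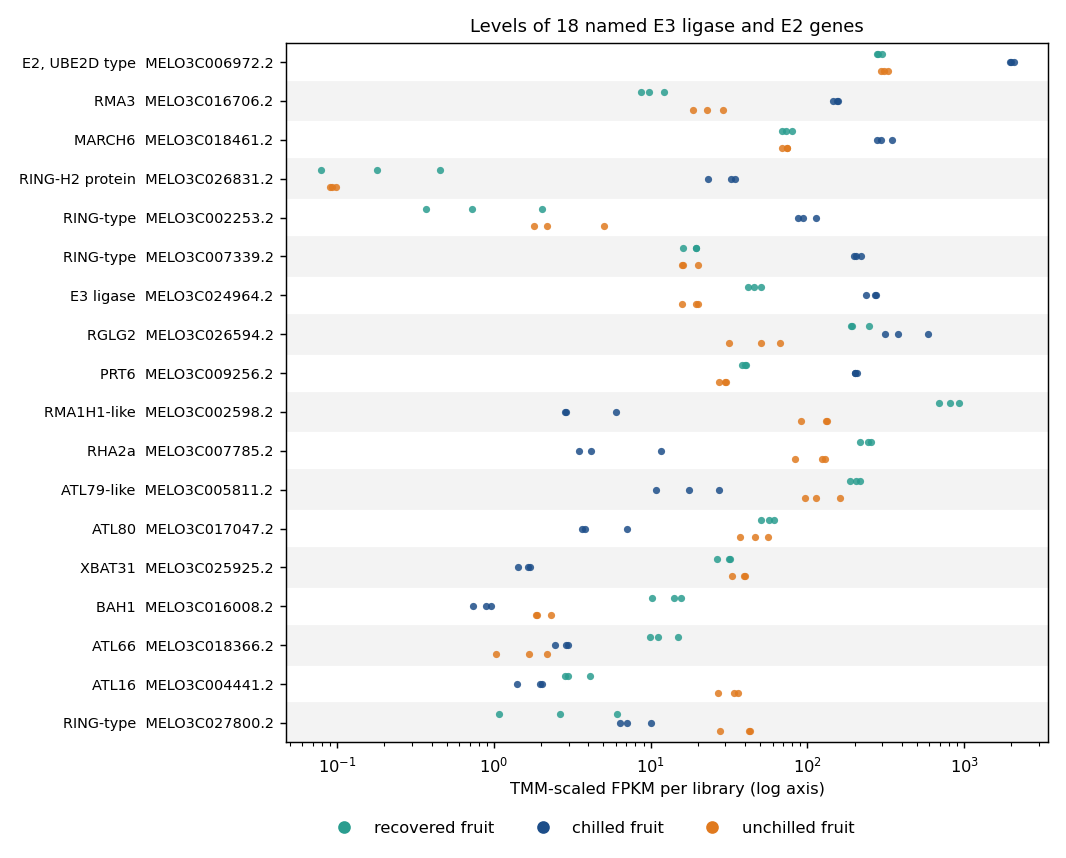
Level of 18 named members in every library (3 points per group, TMM-scaled FPKM, log axis). The upper 9 are highest in chilled fruit, RMA1H1-like to XBAT31 are low there, BAH1 and ATL66 are highest in recovered fruit, and the last 2 are highest in unchilled fruit; RMA1H1-like spans 2.82 to 927.

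Ligases named for hormone or stress responses split as well. Of 46 members, 10 were higher and 14 lower in chilled than unchilled fruit (9 and 23 with library totals), 11 were higher and 11 lower in recovered than in chilled fruit (19 and 6), and 4 were higher and 4 lower in recovered than unchilled fruit. The shares of all tested genes were 22.1% higher and 26.2% lower (14.9% and 37.9% with library totals) in the first comparison. They were 25.1% and 25.3% (36.4% and 17.2%) in the second and 3.66% and 9.15% in the third. RGLG2 in Arabidopsis moves to the nucleus under stress and marks a drought-response ERF factor for degradation. The most abundant of 8 genes with that name, MELO3C026594.2, was at 248, 192 and 189 TMM-scaled FPKM in recovered fruit, 588, 379 and 311 in chilled fruit and 31.5, 50.4 and 66.97 in unchilled fruit. Chilled fruit were highest, recovered fruit stayed above unchilled fruit, and no groups overlapped. It had 3.10 ± 0.33 (edgeR adjusted p = 3.13e-05) in chilled against unchilled and 2.08 ± 0.32 (edgeR adjusted p = 0.00161) in recovered against unchilled fruit. Its value for recovered against chilled fruit (-1.02 ± 0.31, edgeR adjusted p = 0.0137) fell under the limit without the first chilled library (-0.72), without recovered replicate 2 or 3 (-0.96 and -0.95) and with library totals (-0.51).

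The RGLG2 genes did not move as one: 2 were higher and 4 lower in chilled than unchilled fruit, with both scalings. All tested genes gave 22.1% higher and 26.2% lower there by TMM, and 14.9% and 37.9% with library totals. Neighbouring genes on chromosome 2, MELO3C026249.2 and MELO3C026248.2, were at 32.1, 18.6 and 28.4 in recovered, 3.09, 2.71 and 2.35 in chilled and 14.3, 17.9 and 21.2 in unchilled fruit for the first. The second was at 11.9, 9.22 and 10.5 in recovered, 1.75, 2.32 and 1.197 in chilled and 9.64, 10.6 and 13.7 in unchilled fruit. Both were low in chilled fruit, with -2.72 ± 0.24 (edgeR adjusted p = 5.85e-06) and -2.70 ± 0.24 (edgeR adjusted p = 6.56e-06) against unchilled fruit. Whether these neighbours with 1 name share reads was not tested. MELO3C007995.2 had -2.93 ± 0.30 and MELO3C024602.2 2.30 ± 0.17 in the same comparison. These 4 genes were chosen after their values were seen.

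Of the genes tied to abscisic acid and drought in Arabidopsis, KEG keeps the factor ABI5 low. KEG MELO3C003705.2 was at 126, 149 and 159 in recovered, 70.1, 84.5 and 80.1 in chilled and 48.9, 57.2 and 49.1 in unchilled fruit. Recovered fruit were highest and unchilled fruit lowest without overlap, with 1.48 ± 0.12 (edgeR adjusted p = 7.44e-05) in recovered against unchilled fruit and 0.89 ± 0.12 in recovered against chilled fruit, under the limit (1.39, called, with library totals). Of 3 KEG genes the other 2 were not called between recovered and unchilled fruit (0.09 and 0.36). In chilled against unchilled fruit they had -0.41 and -0.55, against 0.60 for MELO3C003705.2. None of the 3 was called there, but 1 was lower with library totals. DRIP2, which marks the drought factor DREB2A for degradation, was represented by 4 genes, and MELO3C006475.2, a member only through its level in chilled fruit, was at 0.4000, 0.0883 and 0.5403 in recovered, 7.58, 8.52 and 7.05 in chilled and 0.192, 0.132 and 0.0914 in unchilled fruit. Chilled fruit were high and the others nearly without counts: by counts the level was 55.9 times that of unchilled fruit, which gave 9 counts (95% interval 29.1 to 123 from counting error alone). The fitted values were 5.75 ± 0.50 (edgeR adjusted p = 4.98e-06) in chilled against unchilled and -4.45 ± 0.44 (edgeR adjusted p = 1.08e-05) in recovered against chilled fruit. A PRA1 family gene with a mean FPKM of 11.7 overlaps it by 397 bases on the opposite strand, so reads of the pair cannot be told apart if strand was not used. Without recovered replicate 2 it was also called higher in recovered than unchilled fruit (1.74). Among the other 3 genes of this name 1 was lower in chilled than unchilled fruit and the others were not called.

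XBAT31, which in Arabidopsis promotes growth at warm temperature by removing ELF3, fell in chilled fruit. MELO3C025925.2 was at 31.8, 31.9 and 26.5 in recovered, 1.69, 1.65 and 1.42 in chilled and 39.2, 33.1 and 39.9 in unchilled fruit. Chilled fruit were far below both others (-4.56 ± 0.14, edgeR adjusted p = 1.87e-08 in chilled against unchilled and 4.24 ± 0.14, edgeR adjusted p = 2.25e-08 in recovered against chilled fruit). BAH1, also known as NLA, limits salicylic acid and phosphate uptake in Arabidopsis. MELO3C016008.2 was at 10.3, 14.2 and 15.7 in recovered, 0.959, 0.8898 and 0.736 in chilled and 1.88, 1.85 and 2.32 in unchilled fruit. Recovered fruit were highest and chilled fruit lowest without overlap, and it had 3.96 ± 0.23 (edgeR adjusted p = 3.12e-07) in recovered against chilled, -1.23 ± 0.23 (edgeR adjusted p = 0.000857) in chilled against unchilled and 2.73 ± 0.20 (edgeR adjusted p = 6.45e-05) in recovered against unchilled fruit. MIEL1-like MELO3C016060.2, named for a ligase that removes MYB30 in Arabidopsis, varied widely at 20.8, 6.63 and 2.100 in recovered, 3.27, 0.738 and 0.407 in chilled and 40.96, 34.2 and 34.98 in unchilled fruit. Both stored groups lay below unchilled fruit and overlapped each other, with -4.68 ± 0.92 (edgeR adjusted p = 0.001496) in chilled against unchilled fruit, or -6.01 without the first chilled library. Its call in recovered against chilled fruit (2.77 ± 0.92, edgeR adjusted p = 0.02200) was lost without the first recovered library (1.60) and without chilled replicate 2 or 3 (2.47 and 2.28), and became 4.10 without chilled replicate 1. Without recovered replicate 1 it was also called lower in recovered than unchilled fruit (-3.08).

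A further 4 ligases of this class were chosen after their values were seen, for their roles. All 4 were higher in chilled than unchilled fruit. Of the 46 members of the class, 10 were higher and 14 lower there (9 and 23 with library totals). HOS1, which in Arabidopsis marks the cold regulator ICE1 for degradation (MELO3C005513.2), was at 20.6, 20.98 and 19.1 in recovered, 48.7, 50.3 and 47.5 in chilled and 18.2, 18.1 and 18.8 in unchilled fruit. Chilled fruit stood clearly above the others, with 1.41 ± 0.07 (edgeR adjusted p = 1.28e-07) in chilled against unchilled and -1.27 ± 0.07 (edgeR adjusted p = 2.03e-07) in recovered against chilled fruit, but library totals gave 0.91 and -0.77, neither called. PRT6, the ligase of the N-degron pathway that in Arabidopsis controls oxygen-sensing ERF factors (MELO3C009256.2), was at 38.5, 40.6 and 40.04 in recovered, 203, 208 and 201 in chilled and 27.2, 29.9 and 30.1 in unchilled fruit. It had 2.81 ± 0.08 (edgeR adjusted p = 1.85e-08) and -2.36 ± 0.08 (edgeR adjusted p = 2.78e-08) in these comparisons. SDIR1, which promotes abscisic acid signalling in Arabidopsis (MELO3C006332.2), was at 18.7, 17.2 and 19.5 in recovered, 58.01, 60.5 and 59.8 in chilled and 17.9, 18.2 and 17.1 in unchilled fruit (1.74 ± 0.07, edgeR adjusted p = 6.49e-08 in chilled against unchilled fruit). AIP2, which removes ABI3 there (MELO3C016933.2), was at 54.99, 34.9 and 49.04 in recovered, 84.4, 102 and 76.1 in chilled and 16.2, 24.6 and 23.2 in unchilled fruit. It had 2.03 ± 0.21 (edgeR adjusted p = 2.18e-05) in chilled against unchilled fruit. Its call in recovered against unchilled fruit (1.12) fell under the limit without recovered or unchilled replicate 1 (0.98 and 0.94), and in recovered against chilled fruit it passed the limit without recovered replicate 1 (-1.06) or chilled replicate 3 (-1.01).

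Ligases named for chromatin (3 members) and growth (5 members) were few. BRE1-like 1, of the type that places ubiquitin on histone H2B (MELO3C005971.2), was at 25.1, 27.3 and 28.7 in recovered, 64.8, 61.6 and 63.9 in chilled and 27.04, 27.5 and 27.6 in unchilled fruit. It was higher in chilled fruit (1.21 ± 0.07, edgeR adjusted p = 3.82e-07 against unchilled fruit, and 0.71, not called, with library totals). ORTHRUS 2-like, of the type that binds methylated DNA (MELO3C008906.2), was at 11.7, 10.2 and 11.9 in recovered, 1.83, 2.15 and 1.75 in chilled and 8.29, 10.4 and 8.57 in unchilled fruit, low in chilled fruit (-2.25 ± 0.15, edgeR adjusted p = 8.13e-07). BIG BROTHER-related MELO3C011752.2, named for a ligase that limits organ size in Arabidopsis, was at 24.8, 26.3 and 22.6 in recovered, 66.1, 74.6 and 71.1 in chilled and 26.6, 29.9 and 28.9 in unchilled fruit. Chilled fruit were highest (1.31 ± 0.09, edgeR adjusted p = 1.10e-06 in chilled against unchilled and -1.52 ± 0.09, edgeR adjusted p = 3.93e-07 in recovered against chilled fruit). MBR2, which promotes flowering in Arabidopsis (MELO3C010842.2), was at 41.2, 42.7 and 39.3 in recovered, 119.5, 116 and 122 in chilled and 60.5, 48.6 and 61.7 in unchilled fruit. It had 1.06 ± 0.10 (edgeR adjusted p = 6.78e-06) in chilled against unchilled fruit, or 0.96 without unchilled replicate 2. With library totals neither growth gene was called in chilled against unchilled fruit (0.81 and 0.56). SINA-like 7 (MELO3C022842.2) was at 34.2, 31.6 and 35.7 in recovered, 10.2, 9.803 and 11.2 in chilled and 20.2, 23.02 and 20.6 in unchilled fruit, lowest in chilled fruit. Its value in chilled against unchilled fruit (-1.03 ± 0.10, edgeR adjusted p = 1.38e-05) fell under the limit without chilled replicate 2 (-0.99) or unchilled replicate 2 (-0.97).

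Among RING-type ligases without a further name, 18 of 50 were higher and 13 lower in chilled than unchilled fruit (11 and 16 with library totals), while 8 were higher and 21 lower in recovered than in chilled fruit (16 and 15). All tested genes gave 22.1% higher and 26.2% lower (14.9% and 37.9% with library totals) in the first comparison. In the second they gave 25.1% and 25.3% (36.4% and 17.2%). MELO3C007339.2 was at 16.03, 19.3 and 19.4 TMM-scaled FPKM in recovered fruit, 199, 221 and 203 in chilled fruit and 19.98, 15.9 and 16.2 in unchilled fruit, about level in the recovered and unchilled groups, which overlapped, and high in chilled fruit. It had 3.58 ± 0.12 (edgeR adjusted p = 2.51e-08) in chilled against unchilled and -3.51 ± 0.12 (edgeR adjusted p = 2.75e-08) in recovered against chilled fruit. MELO3C002253.2, on chromosome 12, was at 2.03, 0.727 and 0.369 in recovered, 86.7, 113 and 93.9 in chilled and 5.06, 2.19 and 1.796 in unchilled fruit. It had 5.02 ± 0.56 (edgeR adjusted p = 4.51e-05) in chilled against unchilled and -6.57 ± 0.62 (edgeR adjusted p = 1.40e-05) in recovered against chilled fruit, the second becoming -7.49 without the first recovered library. Without that library it was also called lower in recovered than unchilled fruit (-2.47). Next to it lies ATL80 MELO3C002255.2 (chosen after its values were seen), which was also high in chilled fruit (2.60 ± 0.25, edgeR adjusted p = 1.14e-05 against unchilled fruit). MELO3C003683.2, also a member only through chilled fruit, was at 0.116, 1.21 and 0.454 in recovered, 20.4, 18.2 and 14.2 in chilled and 0.0626, 0.517 and 0.478 in unchilled fruit. Its 5.59 ± 0.65 in chilled against unchilled fruit set chilled fruit against levels close to 0, and its -4.88 ± 0.60 in recovered against chilled fruit was -5.86 without recovered replicate 2.

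Some of these genes also differed between recovered and unchilled fruit. MELO3C027800.2 was at 6.06, 2.63 and 1.08 in recovered, 9.98, 7.11 and 6.35 in chilled and 42.6, 42.7 and 27.5 in unchilled fruit, low in both stored groups. It had -3.54 ± 0.51 (edgeR adjusted p = 0.00118) in recovered against unchilled fruit (-4.36 without the first recovered library) and -2.27 ± 0.48 (edgeR adjusted p = 0.002099) in chilled against unchilled fruit. Its call in recovered against chilled fruit (-1.27, adjusted p = 0.0464 from edgeR) was lost without each of 8 single libraries and became -2.08 without the first recovered library. A tetraspanin gene overlaps it by 170 bases on the same strand. MELO3C010737.2 was at 4.14, 2.88 and 1.88 in recovered, 66.5, 48.1 and 42.6 in chilled and 9.42, 12.4 and 10.2 in unchilled fruit. Recovered fruit were lowest and chilled fruit highest without overlap (-1.85 ± 0.28, edgeR adjusted p = 0.00151 in recovered against unchilled and -4.15 ± 0.30, edgeR adjusted p = 2.22e-06 in recovered against chilled fruit). MELO3C002240.2 was at 2.31, 0.952 and 1.05 in recovered, 35.9, 10.9 and 9.93 in chilled and 9.803, 6.404 and 9.76 in unchilled fruit, lowest in recovered fruit (-2.59 ± 0.58, edgeR adjusted p = 0.00974 against unchilled fruit). Its value in recovered against chilled fruit was -3.72 ± 0.60, or -2.86 without the first chilled library, which stood above the others of its group. In chilled against unchilled fruit it was called without chilled replicate 2 or 3 (1.40 and 1.43), not with all libraries (1.12). MELO3C027122.2 varied within groups at 5.15, 0.522 and 0.399 in recovered, 0.942, 0.339 and 0.561 in chilled and 11.1, 2.37 and 7.26 in unchilled fruit. Its call in chilled against unchilled fruit (-3.49 ± 1.08, edgeR adjusted p = 0.0162) was lost without chilled replicate 2 or 3 or unchilled replicate 1 (adjusted p of 0.0543, 0.0507 and 0.0501 from edgeR), and without recovered replicate 1 it was called lower in recovered than unchilled fruit (-3.90).

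The other 71 E3 ligases gave 23 higher and 12 lower in chilled than unchilled fruit (16 and 14 with library totals) and 10 higher and 22 lower in recovered than in chilled fruit (14 and 13). All tested genes gave 22.1% higher and 26.2% lower (14.9% and 37.9% with library totals) in the first comparison. In the second they gave 25.1% and 25.3% (36.4% and 17.2%). MELO3C024964.2, described only as an E3 ligase, was at 45.3, 50.5 and 41.9 TMM-scaled FPKM in recovered fruit, 237, 274 and 269 in chilled fruit and 19.5, 20.2 and 15.8 in unchilled fruit, with 3 levels that did not overlap, chilled highest and unchilled lowest. It had 3.81 ± 0.13 (edgeR adjusted p = 2.43e-08) in chilled against unchilled, -2.50 ± 0.12 (edgeR adjusted p = 1.28e-07) in recovered against chilled and 1.31 ± 0.12 (edgeR adjusted p = 0.000131) in recovered against unchilled fruit. MELO3C002199.2 was at 0.822, 0.668 and 1.62 in recovered, 25.7, 31.3 and 24.3 in chilled and 0.563, 0.517 and 0.768 in unchilled fruit. Chilled fruit were far above the others (5.44 ± 0.33, edgeR adjusted p = 5.15e-07 and -4.67 ± 0.31, edgeR adjusted p = 7.44e-07 for the first 2 of these comparisons). MELO3C016212.2 ran the other way at 5.82, 5.43 and 6.04 in recovered, 0.548, 0.283 and 0.5204 in chilled and 8.62, 7.59 and 9.01 in unchilled fruit (-4.21 ± 0.21, edgeR adjusted p = 1.72e-07 in chilled against unchilled and 3.66 ± 0.21, edgeR adjusted p = 3.33e-07 in recovered against chilled fruit). Of 15 genes named RING1 or RING1-like, 7 were higher and 2 lower in chilled than unchilled fruit (4 and 2 with library totals). Of all tested genes, 22.1% were higher and 26.2% lower there (14.9% and 37.9% with library totals). One of the RING1 genes, MELO3C007735.2, was at 6.71, 3.09 and 2.25 in recovered, 7.35, 7.27 and 7.89 in chilled and 30.9, 18.1 and 16.97 in unchilled fruit. Unchilled fruit were highest, with -2.46 ± 0.40 (edgeR adjusted p = 0.00212) in recovered against unchilled fruit, or -3.04 without the first recovered library, and without it was also called lower in recovered than in chilled fruit (-1.49). HUWE1 MELO3C003450.2, named for a HECT ligase of animals, was at 0.9404, 2.96 and 2.59 in recovered, 1.58, 1.46 and 1.47 in chilled and 33.2, 15.3 and 11.5 in unchilled fruit. Both stored groups were low (-3.20 ± 0.48, edgeR adjusted p = 0.001401 in recovered and -3.73 ± 0.52, edgeR adjusted p = 0.000149 in chilled against unchilled fruit).

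Between recovered and unchilled fruit the members that were higher included RMA1H1-like, ATL66, BAH1, ATL70, RGLG2 MELO3C026594.2, U-box 4 MELO3C021709.2 and KEG MELO3C003705.2, whose values are given above. The 24 that were lower included both ATL16 genes, ATL2, MELO3C027800.2 and HUWE1. The lowest fitted value, -4.99, belonged to the BOI-related gene MELO3C020819.2 (chosen after its values were seen), named for a ligase that limits cell death in Arabidopsis and a member only through its level in unchilled fruit. It had 6 counts in recovered and 188 in unchilled fruit, and so was 33.98 times lower by counts (95% interval 15.3 to 93.8 from counting error alone). All 6 counts fell in recovered replicate 3, and without it the fitted value was -8.82. Without chilled or unchilled replicate 1 this gene was also called lower in chilled than unchilled fruit (-3.57 and -2.52). Without recovered replicate 3 or chilled replicate 2 it was called lower in recovered than in chilled fruit (-6.71 and -3.41). Of the 291 members, 277 had a mean FPKM above 1 in recovered, 274 in chilled and 281 in unchilled fruit.

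The genes upstream and downstream of the members, taken as lists of words in the descriptions, moved in their own ways. The 1 tested E1 gene, MELO3C026839.2, was at 104, 121 and 104 in recovered, 530.1, 611 and 597 in chilled and 84.3, 95.7 and 98.3 in unchilled fruit. Chilled fruit were far above the others (2.64 ± 0.12, edgeR adjusted p = 8.17e-08 in chilled against unchilled and -2.40 ± 0.11, edgeR adjusted p = 1.19e-07 in recovered against chilled fruit, both called with library totals as well). Of all tested genes, 22.1% were higher and 26.2% lower in chilled than unchilled fruit, and 25.1% and 25.3% in recovered than in chilled fruit. Of 7 ubiquitin genes, 2 were higher and 0 lower in chilled than unchilled fruit (1 and 2 with library totals), and 1 was higher and 2 lower in recovered than in chilled fruit (2 and 2). The most abundant, polyubiquitin MELO3C032916.2, was at 951, 945 and 928 in recovered, 576, 662 and 650.3 in chilled and 437, 604 and 557 in unchilled fruit. Polyubiquitin MELO3C025417.2 (chosen after its values were seen) was at 69.3, 62.2 and 62.3 in recovered, 2079, 1267 and 1132 in chilled and 73.3, 89.1 and 82.7 in unchilled fruit. It had 4.19 ± 0.24 (edgeR adjusted p = 3.30e-07) in chilled against unchilled fruit. Together the 7 summed to 1903 to 1961 in recovered, 3792 to 4680.3 in chilled and 1559.7 to 1845 in unchilled fruit.

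Downstream, the proteasome differed in another way by TMM, since recovered fruit were the highest. On the deposited FPKM other lists shared this, as given below. Of 35 subunits, 8 were higher and 0 lower in recovered than unchilled fruit with either scaling, beside 3.66% and 9.15% of all tested genes. In chilled against unchilled fruit 7 were higher and 0 lower, beside 22.1% and 26.2% (4 and 3 with library totals), and 1 was higher and 1 lower in recovered than in chilled fruit (15 and 0 with library totals). Their summed level was 3390.2 to 3614 in recovered, 2899.8 to 3143 in chilled and 1926 to 2069 in unchilled fruit. The 44 deubiquitinating enzymes gave 7 higher and 11 lower in chilled than unchilled fruit (4 and 14 with library totals), and the most abundant of them, MELO3C013914.2, was at 25.4, 26.4 and 27.6 in recovered, 229, 202 and 216 in chilled and 30.5, 36.7 and 34.5 in unchilled fruit (2.67 ± 0.09, edgeR adjusted p = 2.61e-08). Of 16 cullin, SKP1 and RBX1 genes, the scaffold of multi-subunit ligases, 4 were higher and 1 lower (1 and 4 with library totals), and of 13 genes of CDC48, the segregase that pulls out ubiquitinated proteins, and its cofactors 4 were higher and 1 lower (3 and 2). The SUMO list, a related modifier, gave 1 higher and 7 lower of 16 in chilled than unchilled fruit (0 and 8), and the 6 COP1 and COP1-interacting genes gave 1 higher and 3 lower (0 and 3). Beside all these lists, 22.1% of all tested genes were higher and 26.2% lower in that comparison (14.9% and 37.9% with library totals).

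**Figure D5:**
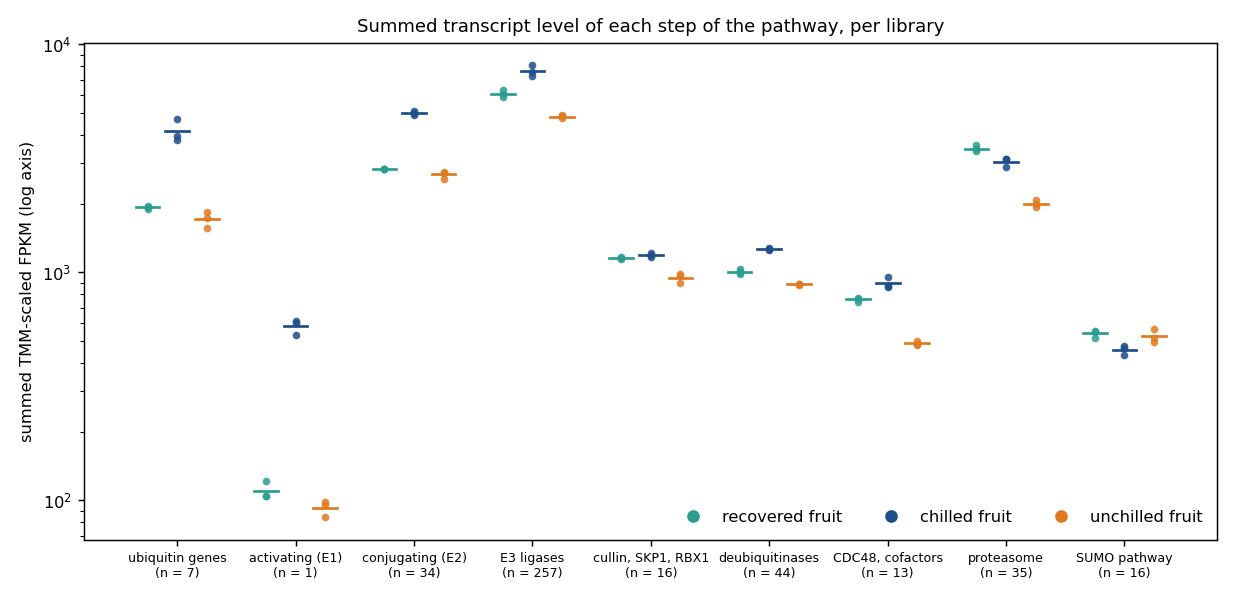
Summed TMM-scaled FPKM of each list of the pathway per library (points, log axis), with a bar at the mean of each group. Ubiquitin, E1 and E2 genes sum highest in chilled fruit, and the proteasome list highest in recovered fruit, at 3390.2 to 3614.

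On the deposited FPKM, which are scaled by library totals, the sums of chilled fruit came down relative to the others. For the 257 E3 members the TMM-scaled sums were 5863 to 6313 in recovered, 7287 to 8088 in chilled and 4732 to 4871 in unchilled fruit. The deposited FPKM gave 6649.7 to 7054 in recovered, 5891 to 6179.6 in chilled and 5344 to 5468 in unchilled fruit, so that recovered and chilled fruit changed places. Recovered fruit also became highest for the deubiquitinating enzymes (1109 to 1169, beside 962 to 1034 in chilled fruit). The same held for cullin, SKP1 and RBX1 (1278 to 1311, beside 912 to 978) and for CDC48 and its cofactors (830 to 868, beside 697 to 731). The proteasome list was at 3788 to 4099 in recovered, 2215.5 to 2535 in chilled and 2162 to 2299 in unchilled fruit, so that chilled and unchilled fruit overlapped. The deposited FPKM of the E1 gene stayed highest in chilled fruit, at 116 to 138 in recovered, 405 to 493 in chilled and 93.7 to 111 in unchilled fruit. The ubiquitin genes were at 2158 to 2191 in recovered, 3066 to 3576 in chilled and 1733 to 2071 in unchilled fruit, but without MELO3C025417.2 at 2088 to 2113.5 in recovered, 1988 to 2172 in chilled and 1652 to 1971 in unchilled fruit, so that recovered and chilled fruit overlapped. The 34 genes described as E2 were at 3175 to 3229 in recovered, 3751 to 4093 in chilled and 2845 to 3100.1 in unchilled fruit, but without MELO3C006972.2 at 2858 to 2891 in recovered, 2242 to 2437 in chilled and 2501 to 2769 in unchilled fruit, with chilled fruit lowest. Both genes were left out after their values were seen.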

How the data were processed

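RNA of 9 melon fruit libraries (3 per group) was sequenced as read pairs, and per the labels reads were trimmed with cutadapt 1.15 and aligned with HISAT2 2.0.5 (submitters' processing notes). The authors deposited 1 table of raw read counts per gene, counted with HTSeq against the DHL92 genome according to the study's methods, and of FPKM made from those counts; the deposited FPKM equal count over gene length and library total. The table names no genome build. Depth was 15508367 to 19011486 counts per library, and all columns of values were used.

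Counts were fitted with edgeR 4.0.16 (R 4.3.3) over all 9 libraries (TMM factors, glmQLFit with robust fits, glmQLFTest, no block), with genes above a mean FPKM of 1 kept (15022) and Benjamini-Hochberg adjustment over all of them. A call needed a log2 fold change past 1 in either direction and an adjusted p below 0.05; SE is the log2 fold change over the root of the F statistic. Fits were tested on simulated data. Ratios of low counts have exact 95% intervals that cover counting error only. The p-values set group differences against the spread between replicates of pooled fruit, fitted over all 9 libraries, and do not cover single fruits. Gene descriptions and KEGG entries are those of the table; no sequence was used here.

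Classes and pathway lists were words in the descriptions. Members and lists were chosen with earlier results of these data known. Named members were, per comparison, the 8 highest and 8 lowest fold changes among called members without overlap of libraries and a mean of at least 5 in the higher group, the 10 most abundant, the most abundant and the extremes of each class, those at the level limit, and the most abundant gene of each pathway list; any further gene is marked in the text. The alternatives tried included library totals, DESeq2 1.42.0, edgeR with DESeq2's size factors, a replicate block, other filters, fits of 2 groups, limma 3.58.1 on log2(FPKM + 1) and log2(FPKM + 0.1), other thresholds, and each library left out in turn.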

Additional observations from a re-analysis of the deposited data

How the results depend on the processing

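The counts of members called moved most with the scaling and the fold limit. Members higher in recovered than in chilled fruit were 69, but 105 with library totals, 107 with limma on log2(FPKM + 0.1) and 108 with no fold threshold. Members lower there were 84, but 53 with library totals, 48 with limma on log2(FPKM + 1) and 52 with limma on log2(FPKM + 0.1). Members higher in chilled than in unchilled fruit were 75, but 43 and 47 with limma on these scales, 50 with library totals and 119 with no fold threshold, while those lower were 74, or 103 with library totals. Between recovered and unchilled fruit, 15 higher and 24 lower became 62 and 41 with no fold threshold. Leaving out each library in turn gave 65 to 71 higher and 82 to 87 lower members in recovered against chilled fruit, 73 to 77 higher and 65 to 77 lower in chilled against unchilled fruit, and 11 to 15 higher and 17 to 29 lower in recovered against unchilled fruit. With the replicate number as a block the counts were 70 and 86, 74 and 75, and 12 and 28 in the order of these comparisons; deviations of same-numbered libraries correlated at -0.137 to 0.149, so the numbers were not taken as pairs. The 56 members named by rule were followed through all comparisons and alternatives, with each gene, comparison and alternative counted once. A call lost under several alternatives thus counts several times. Of these entries 3198 stayed called or uncalled as before, 100 lost a call and 62 gained one. No call reversed its direction, and 21 of the gains came from dropping the fold threshold. Genes chosen after their values were seen are not among these entries. Values that changed sign while uncalled were not counted as reversals. An example is MELO3C005866.2 in chilled against unchilled fruit (0.31, or -0.19 with library totals). The cause of these shifts was not tested beyond the construction of each alternative. Depth limits the members with under 10 counts in a group, whose fitted fold changes rest on few reads.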
